A study of Mus musculus with 8 samples.

Results

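The comparison described here is between the naive and the primed pluripotent state of wild-type mouse embryonic stem cells, in 4 of the 8 RNA-seq libraries of the series. Its members are the 2 naive and the 2 primed libraries that carry a wild-type name, and its genes are the 13056 of 24505 listed (53.3%) with at least 1 RPKM (reads scaled to gene length and library size) in at least 2 of these 4 libraries. Of these, 371 are microRNA or snoRNA rows, 39 of them called below. Being short, they may pass the filter without reads, which was not tested, and none is named. All 8 libraries come from an embryonic stem cell line labelled INO80 CKO, a line in which Ino80, which encodes the motor subunit of a complex that moves nucleosomes, can be deleted. The sources used here name 1 line and give neither its strain nor the driver of the deletion. The naive cultures grew on gelatin in N2B27 medium with the MEK inhibitor PD0325901, the GSK3 inhibitor CHIR99021 and LIF at 1000 units/ml. The primed cultures grew on fibronectin in N2B27 medium with FGF2 at 12 ng/ml, Activin A at 20 ng/ml and the tankyrase inhibitor XAV939 at 2 uM. The other 4 libraries, 2 of each state, are labelled knockout, and their cells had 4-OHT at 100 nM for 2 days and 2 days of further culture. The sources used here do not say whether the wild-type cells had 4-OHT too. Medium and substrate differ together between the states, so their parts cannot be told apart. Ino80 RNA remained in the libraries labelled knockout, at 13.9 and 13.3 RPKM in the naive and 10.2 and 10.3 in the primed state, normalized apart from the wild-type libraries, which held 15.5 to 18.0. The sources used here do not give the deleted part of the gene, so this level leaves the label unchecked, and every comparison with these libraries below is one with their label.

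Naive cells resemble the inner cell mass of the blastocyst before implantation, and primed cells the epiblast after implantation. Both are pluripotent and rest on OCT4 and SOX2, but the naive state is held by LIF signalling through STAT3 and by factors such as ESRRB, KLF4 and TFCP2L1, with ERK signalling blocked and beta-catenin stabilized. The primed state is held by FGF and Activin signalling, carries more DNA methylation, and has its enhancers rebuilt around OTX2. XAV939 stabilizes AXIN and so lowers beta-catenin signalling, while CHIR99021 raises it.

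The levels of the 2 states were scaled apart by the authors, so the 4 libraries were quantile normalized together before they were compared. Levels below are normalized RPKM, given for naive replicates 1 and 2 and then for primed replicates 1 and 2, and differences are those of mean log2(RPKM + 1), primed minus naive, ± SE. This scale understates the change of genes near 0. No gene is listed at 0, and the lowest levels may stand for no reads, so levels and not folds are given for them. Ranks of replicates correlated at 0.998 in both states (Spearman, across genes) and ranks of the 2 states at 0.809 to 0.813. The median difference of all tested genes was 0.03 after normalization and 0.34 in the deposited values. The median gap between replicates of a state was 0.045 in the naive and 0.050 in the primed libraries, against a median absolute difference of 0.49 between the states. A gene was called, and is said to have risen or fallen, when its adjusted p was under 0.05 (limma, Benjamini-Hochberg over all tested genes) and its difference was at least 1, a 2-fold change. The sequencing depth is unknown. No label says that the 2 libraries of a state came from separate cultures, so that p-values rest on a spread which may be purely technical.

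Of the 13056 genes tested, 1770 rose (13.6%) and 1604 fell (12.3%) in the primed state, 3374 in all (25.8%). Every count of list members that rose or fell in wild type is to be read beside these shares. In the deposited values, without normalization, 2761 rose and 1165 fell. The replicates of the 2 states did not overlap for any of the 3374 genes. With replicates this close the call itself nearly ensures this, so it is no further support. Genes that were not called, such as Pou5f1, could be without overlap too. An adjusted p under 0.05 alone was reached by 10984 genes (84.1%), so the size of a difference and not its p separates the genes described here. Differences of at least 2 were reached by 519 genes upward and 601 downward, and of at least 4 by 37 upward and 121 downward. The largest changes were thus more often falls than rises. RNA was pooled from whole cultures, so fewer cells of a type and less RNA per cell cannot be told apart in any result below.

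**Figure D1:**
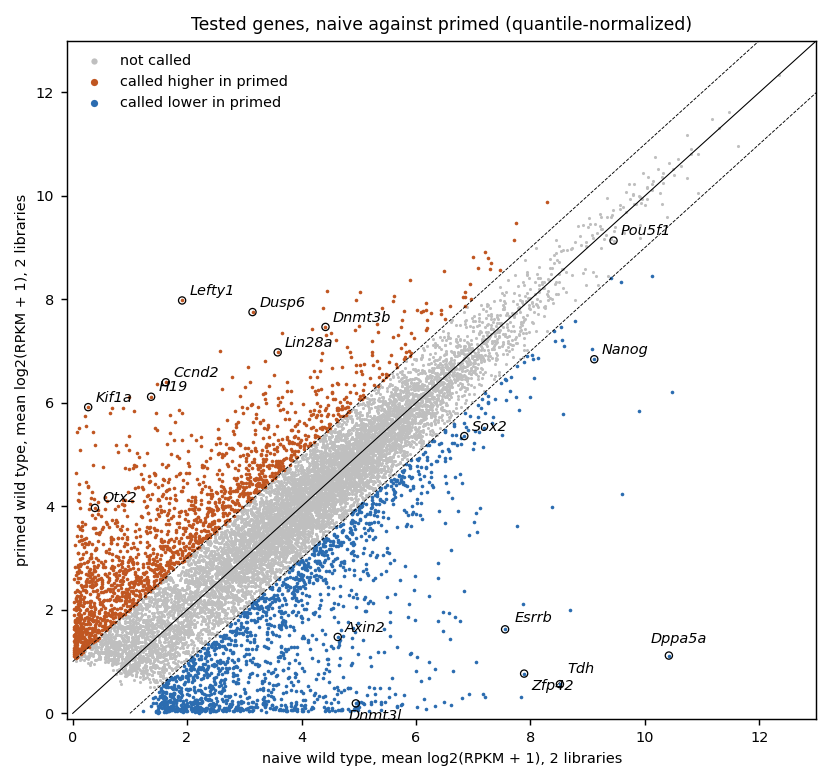
Each point is 1 of the 13056 tested genes, with its mean log2(RPKM + 1) over the 2 naive wild-type libraries on the x axis and over the 2 primed ones on the y axis, after quantile normalization; dashed lines mark a difference of 1 and circled genes are named in the text. Dppa5a, Tdh, Zfp42 and Esrrb lie far below the diagonal and Lefty1, Dusp6 and Kif1a far above it, while Pou5f1 lies within the dashed lines.

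Genes shared by both pluripotent states did not change alike. Pou5f1, the gene of OCT4, stood at 709 and 692 RPKM in the naive and 554 and 570 in the primed libraries, a difference of -0.32 ± 0.02 that was not called. Sox2, its partner, fell from 109 and 119 to 39.6 and 40.5 RPKM (-1.49 ± 0.04). Nanog, a homeobox factor of the same circuit, fell from 554 in both naive libraries to 114 in both primed ones (-2.27 ± 0.02). In total 8 of 20 genes on the list of core pluripotency fell (12.3% of all genes) and 2 rose (13.6%), with a median of -0.56. The 2 that rose were Lin28a, an RNA-binding protein that blocks let-7 maturation, from 11.1 and 10.9 to 125 RPKM in both primed libraries (3.39 ± 0.03), and Utf1, a chromatin protein, from 43.1 and 52.0 to 236 and 266 RPKM (2.38 ± 0.10). Dppa2 and Dppa4, a pair of chromatin proteins that act together, fell the most: Dppa2 from 43.9 and 46 to 0.152 and 0.345 RPKM and Dppa4 from 41.0 and 41.1 to 0.0782 and 0.247. The signalling genes Fgf4, from 50.8 and 53 to 5.28 and 4.69 RPKM, and Gdf3, from 61.3 in both to 3.83 and 4.68, fell as well. As for all called genes, the 2 states of those named here as changed did not overlap.

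Genes that mark the naive state fell without exception among those tested. All 19 tested members of the list fell, with a median of -5.25 against 0.03 over all genes, and Mael, a further member, did not pass the filter. Dppa5a, an RNA-binding protein, went from 1359 and 1381 RPKM, among the highest levels in the naive libraries, to 1.13 and 1.21, a difference of -9.30 ± 0.03. Zfp42, the gene of the zinc finger protein REX1, went from 242 and 231 to 0.755 and 0.653 RPKM (-7.12 ± 0.05), and Esrrb, the orphan nuclear receptor, from 188 and 187 to 2.19 and 1.98 (-5.93 ± 0.04). The Krüppel-like factors did not fall alike: Klf2 went from 93.1 and 106 to 0.817 and 0.722 RPKM and Klf4 from 100.04 and 104 to 2.72 and 2.57, but Klf5 kept 14.0 and 13.0 of 58.0 and 61.6 RPKM. Prdm14, which restrains FGF signalling and DNA methyltransferase genes, fell from 21.7 and 20.9 RPKM to 0.0235 and 0.0492. Tbx3 fell from 52.0 and 56.6 to 0.287 and 0.288 RPKM, Nr0b1 from 66.1 and 67.9 to 0.644 and 0.429, and Dppa3 from 14.6 and 13.1 to 0.145 and 0.0763.

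Genes of the primed state rose, with 1 exception on the list. Of 19 tested, 18 rose and 0 fell, with a median of 1.77. Otx2, the homeobox factor of the primed epiblast, went from 0.325 and 0.293 to 14.6 and 14.8 RPKM (3.58 ± 0.05), and Pou3f1, a POU factor, from 0.630 and 0.697 to 13.9 and 15.1 (3.22 ± 0.06). The SRY-box genes Sox11, from 1.04 and 1.21 to 26.4 and 26.9 RPKM, and Sox4, from 2.35 and 2.45 to 35.3 and 40.4, rose by 3.70 and 3.51. Fgf15 went from 0.306 and 0.231 to 13.0 and 13.7 RPKM. Fgf5, a widely used epiblast marker, rose by 2.14 ± 0.06 but reached only 4.25 and 4.11 RPKM from 0.163 and 0.183. Zic2 and Sox3 rose by 1.66 and 1.60. Foxd3, a forkhead factor, stood at 5.15 and 7.16 RPKM in the naive and 4.69 and 5.34 in the primed libraries, so its states overlapped. The marker genes Zfp42, Esrrb, Otx2 and Dnmt3b thus separated the libraries in the direction of their labels.

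**Figure D2:**
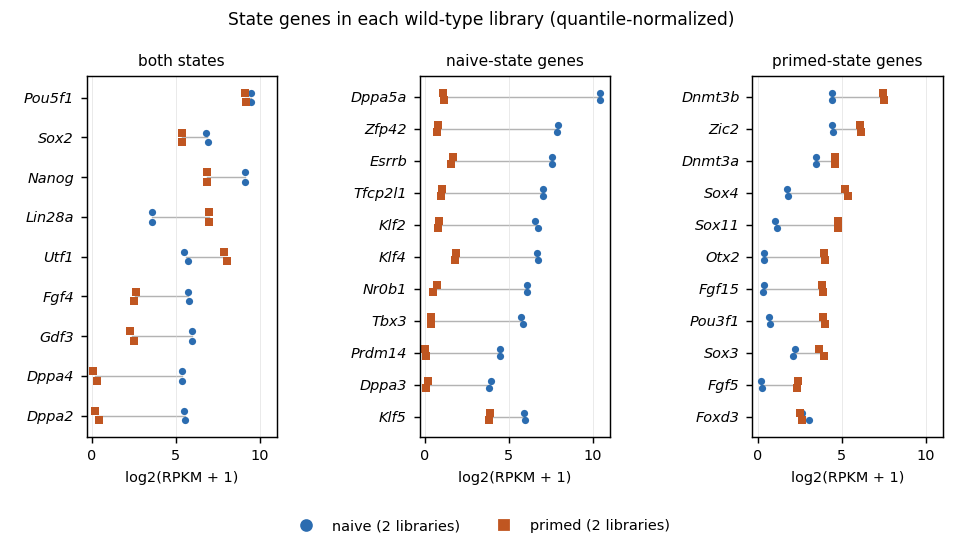
Log2(RPKM + 1) of state genes in each of the 4 wild-type libraries (circles, 2 naive; squares, 2 primed), with a grey line between the state means; levels are quantile-normalized. Pou5f1 moves by 0.32, every naive-state gene shown moves left by at least 2.07, and every primed-state gene except Foxd3 moves right by at least 1.11.

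Targets of FGF and ERK signalling rose, though not all of them. Of 19 tested, 12 rose and 0 fell, with a median of 1.22. Negative feedback regulators led the list: Dusp6, an ERK phosphatase, went from 7.90 and 7.77 to 211 and 219.6 RPKM (4.61 ± 0.03), Dusp4, another, from 0.865 and 0.889 to 15.6 and 17.4 (3.22 ± 0.07), and Spry4, an inhibitor of receptor signalling, from 1.48 and 1.98 to 20.4 and 20.5 (2.98 ± 0.09). Myc rose from 5.23 and 4.55 to 39.7 and 38.8 RPKM. The list was not uniform. The ETS factors Etv4, at 44.3 and 44.4 in the naive and 57.5 and 55.8 RPKM in the primed libraries, and Etv5, at 92.3 and 91.0 against 57.8 and 55.0, were not called. Egr1, an immediate-early gene, stood at 104 and 103 RPKM in the naive libraries, with the MEK inhibitor in the medium, and at 61.0 and 62.7 in the primed ones (-0.73 ± 0.02, not called, but called at -1.01 with median centring).

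Targets of Wnt and beta-catenin signalling fell more often than they rose, by 7 to 2 of 15 tested, with a median of -0.64. Axin2, the feedback scaffold of the pathway, fell from 23.7 and 23.9 to 1.83 and 1.74 RPKM (-3.16 ± 0.04). Notum, a secreted enzyme that inactivates Wnt proteins, fell from 37.7 and 37.5 to 0.396 and 0.404 (-4.78 ± 0.04). The caudal gene Cdx1 fell from 66.4 and 61.8 to 0.102 and 0.0729 RPKM (-5.90 ± 0.05), the largest fall on the list. Sp5, a zinc finger gene, fell from 8.98 and 11.7 to 0.0555 and 0.0539 RPKM (-3.42 ± 0.12). Lef1, a partner of beta-catenin that is also a primed-state gene, rose from 3.06 and 2.5 to 8.03 and 7.24 RPKM, and Nkd1 rose from 1.70 and 1.29 to 3.99 and 4.28, a call lost without naive replicate 2 (0.94) or primed replicate 2 (0.97), and with cyclic loess (0.905) or ranks (0.997). Ccnd1, Tcf7 and Znrf3, the most abundant of the members that were not called, differed by -0.64, -0.18 and -0.58.

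The Sp5 promoter is shown because it was 1 of 2 promoters on the Wnt list that hold CTTTGAT, a core of the site bound by TCF and LEF proteins, the DNA-binding partners of beta-catenin. Both strands of the 250 bases before each RefSeq start were searched, and 10 of the 15 tested list members had an entry. Of all 9833 tested genes with an entry, 2.64% held the letters. The window lies at chr2:70474795-70474849 on the plus strand of GRCm38.p6, a later build than the mm9 of the files, and the capitals mark the match, which begins 104 bases before the start.
Sp5: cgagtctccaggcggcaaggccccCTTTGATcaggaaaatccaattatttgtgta
The other was Tnfrsf19, which fell from 14.4 and 13.9 to 1.39 and 1.49 RPKM and is named for this match, after its values were seen. No factor's binding was measured in these libraries.

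The Nodal and Activin pathway, which Activin A feeds in the primed medium, rose at several feedback and target genes. Of 20 genes tested, 6 rose (13.6% of all genes) and 2 fell (12.3%), with a median of 0.58. Lefty1, a secreted Nodal antagonist that the pathway itself induces, had the largest rise of all tested genes that meet the naming rule, from 2.87 and 2.67 to 244 and 259 RPKM (6.07 ± 0.04). Its neighbour in the family, Lefty2, went from 3.77 and 3.95 to 7.73 and 9.24 RPKM and was not called (0.96 ± 0.09), though it was without primed replicate 1 (1.07), with median centring (1.02), with a pseudocount of 0.1 (1.12) and in the deposited values (1.41). Skil, a feedback repressor of SMAD proteins, rose from 12.6 and 12.2 to 38.7 and 38.6 RPKM. Smad3, a signal transducer, rose from 4.19 and 3.94 to 13.7 and 13.3 RPKM. Nodal itself stood at 46.4 and 45.9 in the naive and 41.3 and 43.8 RPKM in the primed libraries (-0.12 ± 0.04). Pcsk6, a protease that matures Nodal, fell from 33.5 and 33.7 to 3.97 and 3.57 RPKM.

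Genes of the LIF and STAT3 pathway fell in 8 of 15 cases and rose in 0, with a median of -1.33. Stat3 fell from 35.9 and 36.8 to 8.11 and 7.18 RPKM (-2.11 ± 0.06), and its target Socs3, the feedback inhibitor, from 21.2 and 23.2 to 5.43 and 5.62 (-1.83 ± 0.05). Tfcp2l1, a target that sustains the naive state, fell from 130 and 132 to 1.05 and 0.949 RPKM, and Bcl3, an inhibitor-of-kappa-B family member, from 29.2 and 27.9 to 1.68 and 1.83. The kinase genes Pim1 and Pim3 and the phosphatase gene Ptpn11 were not called (0.13, 0.89 and 0.53), though Pim3 was in the deposited values (1.12). Among 14 genes of the BMP pathway, Id2 rose from 1.75 and 1.32 to 20.4 and 21.9 RPKM while Id3 fell from 20.3 and 22.1 to 4.31 and 4.58, so these related inhibitors of helix-loop-helix factors went opposite ways. Id1 stood at 5.67 and 8.10 in the naive and 9.72 and 10.6 RPKM in the primed libraries and was not called.

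**Figure D3:**
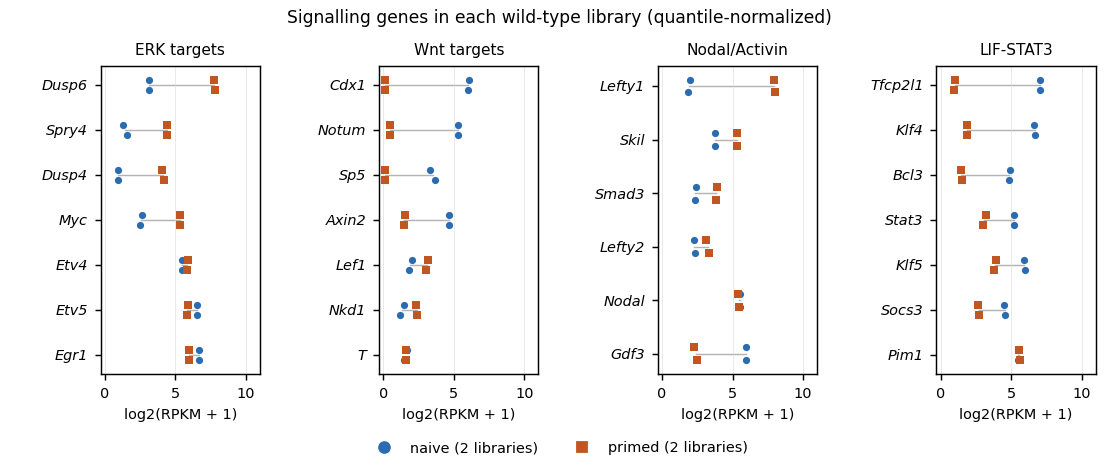
Log2(RPKM + 1) of signalling genes in each of the 4 wild-type libraries (circles, naive; squares, primed), quantile-normalized, with a line between the state means. Dusp6 and Lefty1 move right by more than 4, Cdx1, Notum, Tfcp2l1 and Klf4 move left by more than 4, and T, Nodal and Pim1 hardly move.

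Among genes of DNA methylation 2 of 13 writers and readers rose and 2 fell, shares near the 13.6% and 12.3% of all genes. Dnmt3b, a de novo methyltransferase, rose from 20.4 in both naive libraries to 175 and 178 RPKM (3.05 ± 0.02), and Dnmt3a, the other, from 10.3 and 10.1 to 23.1 and 23.2 (1.11 ± 0.03). Dnmt3l, their catalytically inactive cofactor, fell from 30.2 and 29.6 to 0.193 and 0.0943 RPKM (-4.76 ± 0.06). Dnmt1, the maintenance enzyme, stood at 83.8 and 81.8 against 67.7 in both primed libraries (-0.29), while Uhrf1, which brings it to replicated DNA, fell from 189 and 184 to 88.7 and 85.2 RPKM (-1.09 ± 0.03), a call lost in the deposited values (-0.99) and with ranks (-0.96). On the side of demethylation, 3 of 7 tested genes fell and 0 rose: Tet1 fell from 34.5 and 34.6 to 13.9 and 13.2 RPKM, Tet2 from 34.0 and 35.4 to 3.42 and 3.32, and Prdm14 is on this list too. The Tet1 call was lost in the deposited values (-0.98). The methylation of DNA itself was not measured in these libraries.

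Germline genes, many of which are silenced by promoter methylation in somatic cells, fell in 18 of 23 cases and rose in 2, with a median of -2.05. Tex19.1, which represses retrotransposons in germ cells, fell from 144 and 143 to 0.319 and 0.258 RPKM (-6.81 ± 0.04), and Dazl, an RNA-binding protein of germ cells, from 77.8 and 80.7 to 0.159 and 0.0425 (-6.19 ± 0.06). Rpl10l, a germ-cell copy of a ribosomal protein gene, fell from 234 and 220.4 to 0.224 and 0.256 RPKM, and Fkbp6, needed for meiosis and piRNA production, from 40.8 and 41.1 to 0.0687 and 0.0360. Tdrkh, a Tudor domain protein of the piRNA pathway, went the other way, from 0.875 and 0.902 to 26.0 and 25.6 RPKM (3.83 ± 0.04), and Tdrd5 rose by 1.49. The meiotic gene Sycp1 stood at 10.1 in both naive libraries and 6.11 and 6.38 RPKM in the primed ones and was not called. Rpl10l shares much of its sequence with Rpl10, so its level is uncertain.

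The E-box CACGTG was searched because MGA and MAX, which hold many germline genes silent in embryonic stem cells, bind such sites. Of 21 tested germline genes with a RefSeq entry, 8 (38.1%) held it in the 250 bases before a start, against 10.1% of all 9833 tested genes with an entry. The 8 were Ddx4, Fkbp6, Hormad1, Mov10l1, Slc25a31, Sycp1, Sycp3 and Taf7l, of which all but Sycp1 fell. Windows of 3 that fell are shown, in GRCm38.p6 with the E-box in capitals: Fkbp6 at chr5:135350052-135350105 (minus strand), Hormad1 at chr3:95559633-95559676 (plus) and Taf7l at chrX:134476510-134476563 (minus). Of the 8, all but Fkbp6 and Sycp1 are named for this match, after their values were seen.
Fkbp6: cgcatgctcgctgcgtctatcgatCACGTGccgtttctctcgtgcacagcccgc
Hormad1: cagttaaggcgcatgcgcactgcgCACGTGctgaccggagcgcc
Taf7l: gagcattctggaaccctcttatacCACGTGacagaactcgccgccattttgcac
Hormad1, a meiotic chromosome axis protein, fell from 27.4 and 28.1 to 0.0317 and 0.0323 RPKM, and Taf7l, a TFIID subunit of germ cells, from 3.68 and 3.33 to 0.121 and 0.206. The E-box stood 168, 20 and 49 bases before the start in the order shown.

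Genes of the 2-cell embryo, which a small part of naive cells switch on at any time, fell in all 6 tested cases, with a median of -3.42. The Zscan4 copies led them: Zscan4a went from 21.7 and 22.8 to 0.0528 and 0.0281 RPKM, Zscan4d from 22.5 and 21.7 to 0.0902 and 0.0605, and Zscan4c from 14.7 and 15.5 to 0.0269 and 0.0278. These copies are nearly identical, so how their reads were shared between them is uncertain, and their falls cannot be counted as independent. All tested members of the list but Tdpoz3 are Zscan4 copies. Tcstv1, Tcstv3, Zfp352, Tdpoz4 and Gm4340 did not pass the filter.

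Imprinted genes rose in 12 of 21 cases and fell in 1, with a median of 1.1. H19, a maternally expressed long RNA, rose from 1.47 and 1.71 to 68.4 and 68.6 RPKM (4.75 ± 0.05), and Nnat, which encodes the proteolipid neuronatin, from 5.23 and 4.75 to 125 and 131 (4.43 ± 0.05). Peg3, a zinc finger gene, rose from 8.5 and 8.90 to 47.8 and 48.6 RPKM and Magel2, a ubiquitin ligase regulator, from 0.403 and 0.279 to 6.18 and 6.06. Plagl1, a zinc finger gene, was the one that fell, from 62.3 and 62.6 to 5.09 and 5.52 RPKM (-3.33 ± 0.04). Mest, Impact and Slc38a4, the most abundant members not called, differed by 0.34, 0.03 and -0.63. Alleles were not told apart in these values.

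Metabolic genes changed at particular steps. Tdh, the threonine dehydrogenase on which naive mouse cells draw for glycine and acetyl-CoA, fell from 370.3 and 360.4 to 0.516 and 0.442 RPKM (-7.95 ± 0.04), the largest fall after Dppa5a under the naming rule. In the opposite direction went the serine and glycine genes Psph, from 37.4 and 35.4 to 123 and 130 RPKM, and Phgdh, from 78.5 and 73.7 to 209 and 218. Gldc, of the glycine cleavage system, rose from 29.4 and 29.0 to 80.4 and 80.7 RPKM and Mthfd2, a mitochondrial folate enzyme, by 1.36. Of 13 genes on this list 6 rose and 1, Tdh, fell.

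Glycolysis genes rose in 8 of 22 cases and fell in 2, with a median of 0.56. Slc16a3, the lactate exporter MCT4, rose from 5.76 and 6.07 to 84.9 and 93.4 RPKM (3.70 ± 0.05), Pfkl, a phosphofructokinase, from 27.3 and 26.4 to 131 and 138, and Pgk1, phosphoglycerate kinase, from 54.3 and 55.1 to 220.4 and 216. Another phosphofructokinase form, Pfkp, fell from 77.5 and 75.4 to 20.1 and 20.4 RPKM (-1.86 ± 0.03). Among hexokinases Hk1 fell from 24 and 23.6 to 9.5 and 8.89 RPKM, a call lost in the deposited values (-0.91). Gapdh, at 1280.4 and 1269 against 1237 and 1198 RPKM, was not called, nor were Pkm and Slc2a3 (0.62 and 0.28). Hypoxia-inducible genes, which share some of these roles, rose in 8 of 17 cases and fell in 1. Vegfa, the vascular growth factor, rose from 10.3 and 10.5 to 89.7 and 95.6 RPKM (3.04 ± 0.04), while Kdm3a, a histone demethylase, fell from 90.7 and 91.3 to 20.8 and 20.9.

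Of 73 genes of oxidative phosphorylation 0 rose and 2 fell, Cox5a and Atp5g1, with a median of -0.03, and none of 19 genes of the tricarboxylic acid cycle was called, although 10984 of all genes had an adjusted p under 0.05. The Cox5a call was lost in the deposited values (-0.88), with cyclic loess (-0.91) and with ranks (-0.77). Among genes of fatty acid oxidation, Cpt1a, the carnitine transferase that admits fatty acids to mitochondria, fell from 42.7 and 42.5 to 2.21 and 2.02 RPKM (-3.81 ± 0.05), and its partner carrier Slc25a20 from 55.7 and 53.9 to 5.97 and 6.41 (-2.96 ± 0.04). The dehydrogenase Acadm fell by 1.36, while Acadl, the long-chain form, rose from 11 and 10.9 to 46.3 and 45.1 RPKM. In all, 4 of 15 genes of this list fell and 1 rose.

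Targets of ATF4 and CHOP, the genes of the integrated stress response, which cells switch on when translation is restrained or amino acids are short, rose in 21 of 27 cases and fell in 1, with a median of 1.48. Ddit3, the gene of CHOP, rose from 9.60 and 9.07 to 108 and 114 RPKM (3.44 ± 0.04). Trib3, a pseudokinase that CHOP induces, rose from 22.6 and 21.4 to 154 and 170.0 RPKM (2.82 ± 0.05), and Chac1, which degrades glutathione, from 10.6 and 9.11 to 74.5 and 85.3 (2.90 ± 0.09). Stc2, a secreted glycoprotein, rose from 7.39 and 6.72 to 76.0 and 79.5 RPKM. Atf4 itself, which is controlled mainly in translation, stood at 243 and 249 against 364 and 356 RPKM (0.55 ± 0.02, not called), and Asns, asparagine synthetase, at 596 and 601 against 512 and 502 (-0.24). Gdf15, a stress cytokine, fell from 7.29 and 8.23 to 2.70 and 4.14 RPKM (-1.0 ± 0.16), and was not called without naive replicate 2 (-0.91), without primed replicate 1 (-0.76), with median centring (-0.95), with ranks (-0.85) or in the deposited values (-0.56). None of 18 genes of the endoplasmic reticulum stress list was called. Of 20 aminoacyl-tRNA synthetases 3 rose, a share near the 13.6% of all genes.

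The libraries labelled knockout gave another picture for this list. There, with the 4 libraries normalized on their own, 4 of the 27 genes rose and 7 fell, with a median of -0.23, against 10.2% of all genes that rose and 10.5% that fell. The state difference was above that of the libraries labelled knockout for 27 of 27 genes. Tested directly over all 8 libraries, the difference between the 2 state differences was called for 24 of them, higher in wild type in each, against 4.13% of all genes. Trib3 stood at 16.3 and 16.6 RPKM in the naive and 3.77 and 3.41 in the primed libraries labelled knockout, so that it rose in wild type and fell there (wild type minus knockout 4.78 ± 0.08, limma adjusted p = 3.4e-08). Ddit3 stood at 8.91 and 8.43 RPKM in the naive and 10.2 and 9.86 in the primed libraries labelled knockout (3.35 ± 0.06). Chac1 stood at 3.69 and 4.56 against 1.68 and 1.77 RPKM (3.89 ± 0.14). Asns, which was not called in wild type, stood at 446 and 495 against 64.2 and 66.2 RPKM there (2.61 ± 0.06).

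The promoters of this list are shown because ATF4 acts on amino acid response elements that hold TGATGNAA, where N is any base, on either strand. Of 24 list members with a RefSeq entry, 7 (29.2%) held it in the 250 bases before a start, against 2.35% of all 9833 tested genes with an entry. They were Asns, Atf3, Chac1, Fgf21, Nupr1, Slc7a11 and Vldlr, of which Asns and Nupr1 did not rise. The windows of 4 that rose follow, in GRCm38.p6, with each match in capitals: Chac1 at chr2:119351025-119351080 (plus strand), Atf3 at chr1:191183412-191183467 (minus), Slc7a11 at chr3:50443629-50443684 (minus) and Fgf21 at chr7:45615598-45615653 (minus). Atf3, Fgf21, Nupr1 and Vldlr are named for this match, after their values were seen.
Chac1: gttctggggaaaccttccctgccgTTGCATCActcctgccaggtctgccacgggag
Atf3: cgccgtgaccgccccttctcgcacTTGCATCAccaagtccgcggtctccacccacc
Slc7a11: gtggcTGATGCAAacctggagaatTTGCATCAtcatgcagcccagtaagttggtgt
Fgf21: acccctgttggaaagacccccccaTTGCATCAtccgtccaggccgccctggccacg
The Slc7a11 window holds 2 matches, 1 on each strand, and the others hold 1. Slc7a11, the cystine transporter, rose from 1.26 and 1.33 to 13.2 and 12.8 RPKM, Atf3, a bZIP factor, from 3.75 and 4.13 to 26.6 and 26.1, and Fgf21, a stress hormone, from 0.146 and 0.193 to 4.27 and 5.36.

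**Figure D4:**
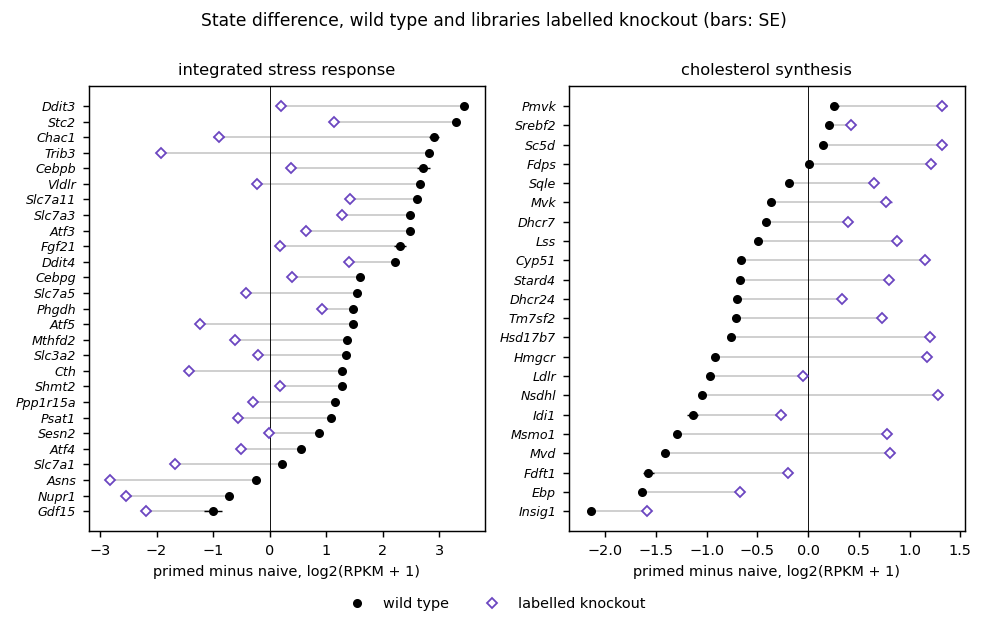
Primed minus naive difference of mean log2(RPKM + 1) for each tested gene of the integrated stress response (27) and of cholesterol synthesis (22), in wild type (filled circles) and in the libraries labelled knockout (open diamonds), with SE over 2 libraries a state; each genotype was normalized on its own. In the first list every wild-type point lies right of its knockout point, and in the second every one lies left of it.

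Cholesterol synthesis genes fell in 7 of 22 cases in wild type and rose in 0, with a median of -0.71. Insig1, which retains the sterol sensor in the endoplasmic reticulum, fell from 62.5 and 63.3 to 13.9 and 13.0 RPKM (-2.14 ± 0.04), Ebp, a sterol isomerase, from 28.8 and 29.0 to 8.83 and 8.33, and Fdft1, squalene synthase, from 58.3 and 58.6 to 19.9 and 18.0. Mvd, of the mevalonate steps, fell from 73.4 and 68.6 to 25.7 and 26.5 RPKM (-1.41 ± 0.04). In the libraries labelled knockout 7 of the 22 rose and 1 fell, with a median of 0.78, and Mvd stood at 27.7 and 26.8 in the naive and 48.9 and 48.2 RPKM in the primed libraries. The direct test called 16 of the 22, each lower in wild type, against 2.84% of all genes (Mvd -2.23 ± 0.05, limma adjusted p = 6.8e-08). In the deposited values, where the median of all genes was 0.60, it called 6 of the 22, each lower in wild type. Among all 13056 genes 100 were called lower there. Of the 27 stress response genes 26 were called in those values, each higher, beside 2872 higher calls among all genes. Fdps and Srebf2, the latter the transcription factor of the pathway, were not called in wild type (0.01 and 0.20).

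Many epithelial genes rose, but E-cadherin did not. Of 18 epithelial genes 12 rose and 2 fell, with a median of 1.87. Esrp1, a splicing factor of epithelia, rose from 0.902 and 0.762 to 58.3 and 58.9 RPKM (5.03 ± 0.05), and the tight junction genes Cldn7, from 2.27 and 1.36 to 80.9 and 81.1, and Cldn6, from 7.07 and 7.63 to 105 and 100.3, rose with it. Krt18, a keratin, rose from 2.15 and 2.32 to 42.1 and 41.6 RPKM. Cdh1, E-cadherin, fell from 262 and 264 to 117 and 112 RPKM (-1.20 ± 0.03, but -0.97 and not called with ranks), while Cdh2, N-cadherin, rose from 2.51 in both to 16.9 and 16.1 (2.32 ± 0.05). Of 10 mesenchymal genes 4 rose and 2 fell. Tnc, the matrix protein tenascin, rose from 0.0405 and 0.0330 to 24 and 24.1 RPKM, and Snai1, a repressor of E-cadherin, fell from 3.17 and 3.48 to 1.09 and 1.06. The Snai1 call was lost in the deposited values (-0.72, limma adjusted p = 0.148) and with all 8 libraries normalized together (-0.997). Vim stood at 146 and 155 against 232 and 238 RPKM and was not called.

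Matrix genes moved both ways. Lamb1 rose from 8.79 and 8.13 to 60.8 and 57.7 RPKM, Col4a2 from 2.21 and 2.14 to 9.99 and 10.9, and Itgb1, the shared integrin subunit, from 67.6 and 66.8 to 217 and 214. Lama1, a laminin alpha chain, fell from 11.8 and 11.7 to 1.21 and 1.17 RPKM, Nid1, which links laminin and collagen, from 56.8 and 55.3 to 11.3 in both, and Fn1, fibronectin, from 200.3 in both to 90.5 and 88.7, a call lost with ranks (-0.99). In total 7 of 17 genes of matrix and integrins rose and 3 fell. The coating of the plates also differed between the states, and its part was not tested. Targets and partners of YAP and TEAD rose in 8 of 13 cases: Axl, a receptor kinase, from 0.276 and 0.281 to 6.85 and 6.45 RPKM, Cyr61, a secreted matrix protein, from 27.4 and 28.1 to 123 and 128, and Tead2 from 49.0 and 46 to 151 and 158. Tead4 fell from 19.7 and 21.1 to 1.46 and 1.23 RPKM, and Yap1 was not called (-0.07). In the libraries labelled knockout 4 of the 13 rose and 1 fell, with a median of -0.32, and 5 were called in both in the same direction. The direct test called 4 of the 13, each higher in wild type, against 4.13% of all genes. Wild type minus knockout was positive for 8 of the 13 and negative for 5. Cyr61, with the largest gap of the list, stood at 53 and 50.4 against 37.2 and 35.8 RPKM (wild type minus knockout 2.69 ± 0.05, limma adjusted p = 3.4e-08).

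Among cell cycle genes those of G1 held the large changes. Ccnd2, cyclin D2, rose from 2.04 and 2.14 to 85.3 and 81.5 RPKM (4.77 ± 0.04), and Cdk6, its kinase, from 7.12 and 7.15 to 28.4 in both. Cdkn1a, the inhibitor p21 and a p53 target, fell from 161 in both to 52.8 and 50.9 RPKM (-1.62 ± 0.03). Over the 18 genes of this list 3 rose and 4 fell, against 13.6% and 12.3% of all genes. None of 22 genes of mitosis was called, and of 22 genes of replication 1, Rfc4, rose, a call lost with median centring (0.97). Of 24 p53 targets 6 fell and 1 rose, the latter Bbc3, a cell death gene, from 11.6 and 13.4 to 37.8 and 41.8 RPKM. Ddit4l fell the most, from 12.4 and 12.2 to 2.30 and 2.05 RPKM. In the libraries labelled knockout Cdkn1a stood at 204 and 191 in the naive and 199 and 190.2 RPKM in the primed state (wild type minus knockout -1.63 ± 0.06, limma adjusted p = 3.1e-07).

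Cytosolic heat shock genes fell in 6 of 14 cases and rose in 0, with a median of -0.85. Hspb1, a small heat shock protein, fell from 337 and 324 to 15.1 and 14.6 RPKM (-4.39 ± 0.03), and Hspa8, the constitutive HSP70, from 1102 and 1128 to 355 and 346 (-1.67 ± 0.02). Hsp90aa1 fell from 764 and 767 to 324 and 317 RPKM (-1.25). With ranks neither Hspa8 (-0.98) nor Hsp90aa1 (-0.63) was called, nor was Hsp90aa1 with cyclic loess (-0.97). Targets of NRF2, the factor of the antioxidant response, fell in 6 of 14 cases and rose in 1, with Nqo1, a quinone reductase, at 87.1 and 88.6 against 3.40 and 2.48 RPKM (-4.51 ± 0.11). Ribosomal protein genes, with many processed copies in the genome, had 0 of 76 called and a median of 0.20.

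Of 11 genes of PRC2, the complex that sets H3K27 methylation, 3 fell and 1 rose: Mtf2, an accessory subunit, fell from 109.8 and 109 to 36.2 and 36.0 RPKM, Eed, a core subunit, from 97.5 and 98.7 to 40.8 and 41.1, and Aebp2 by 1.07, while Phf19 rose from 1.13 and 0.793 to 4.13 and 3.53. The Aebp2 call was lost in the deposited values (-0.79). Ezh2, the methyltransferase, stood at 88.8 and 85.8 against 84.3 and 83.3 RPKM and was not called. Of 15 genes of the INO80 complex 1 rose, Actr5, from 6.94 and 6.75 to 17.3 and 17.7 RPKM, and Ino80 stood at 17.6 and 18.0 against 15.7 and 15.5. The Hox genes, classical Polycomb targets, fell in 9 of 23 cases and rose in 2, with 16 more below the filter. Hoxc13 had the largest fall, and went from 10.4 and 10.3 to 0.291 and 0.202 RPKM.

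Markers of other cells that such cultures can hold moved with the state. Of 12 fibroblast markers, whose summed level was 5.32 and 5.71 RPKM in the naive and 121 and 118 in the primed libraries, 7 of 9 tested rose. Tagln, a smooth muscle and fibroblast gene, rose from 0.975 and 0.986 to 69.7 and 66.4 RPKM and made up the largest share, followed by Col3a1, from 0.0603 and 0.106 to 20.4 and 20.9, Acta2, at 9.44 and 9.01 in the primed libraries, and Col1a1, from 0.187 and 0.174 to 5.25 and 5.67. The markers Postn, Lum and Twist2 were below the filter, at most 0.515 RPKM in any library. The rises among matrix and mesenchymal genes stand beside these markers, and the part of other cells in them was not tested. Neural genes also rose, in 6 of 8 tested cases, with summed levels of 58.5 and 56.8 in the naive and 154 and 155 RPKM in the primed libraries. Nes, an intermediate filament of neural progenitors, rose from 6.60 and 6.67 to 69.7 and 69.2 RPKM and Pax6 from 0.244 and 0.259 to 7.34 and 7.52.

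Genes of the primitive streak, which primed cells enter as they differentiate, fell in 6 of 11 tested cases and rose in 2, and their summed level was 106 and 101 RPKM in the naive and 22.2 and 22.6 in the primed libraries. Cdx1, described above, made up most of the naive sum. Eomes, a T-box factor, fell from 7.45 and 6.89 to 1.15 and 0.871 RPKM. T, the gene of Brachyury, stood at 2.22 and 1.77 in the naive and 1.96 and 1.98 RPKM in the primed libraries, a difference of -0.01 ± 0.09, with overlapping states. In the libraries labelled knockout T stood at 0.365 and 0.320 in the naive and 39.7 and 38.7 RPKM in the primed state, the largest gap of this direction between the labels (wild type minus knockout -4.92 ± 0.10, limma adjusted p = 4.0e-08). Eomes there stood at 5.53 and 5.77 against 7.49 and 7.76 RPKM (-2.34 ± 0.10). Fgf8 and Wnt3 were the 2 that rose in wild type, to 5.69 and 6.50 and to 3.46 and 3.28 RPKM. Of 7 primitive endoderm markers tested, 3 rose and 1, Lama1, fell. The transcription factor gene Gata4 stood at 2.68 and 3.06 in the naive and 1.56 and 1.58 RPKM in the primed libraries and was not called, and Gata6, Sox17 and Sox7 were below the filter, while the summed level went from 98.6 and 96.7 to 208 and 202 RPKM, with Sparc, Lamb1, Col4a1 and Col4a2, which many cells make, as its most abundant members in the primed libraries. Trophoblast markers fell in 5 of 6 tested cases, against 12.3% of all genes, with Tead4 and Tfap2c the most abundant in the naive libraries. Gata3, the other tested marker, rose from 0.550 and 0.464 to 1.96 and 2.27 RPKM (1.05 ± 0.08). Elf5 and Hand1 were below the filter.

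**Figure D5:**
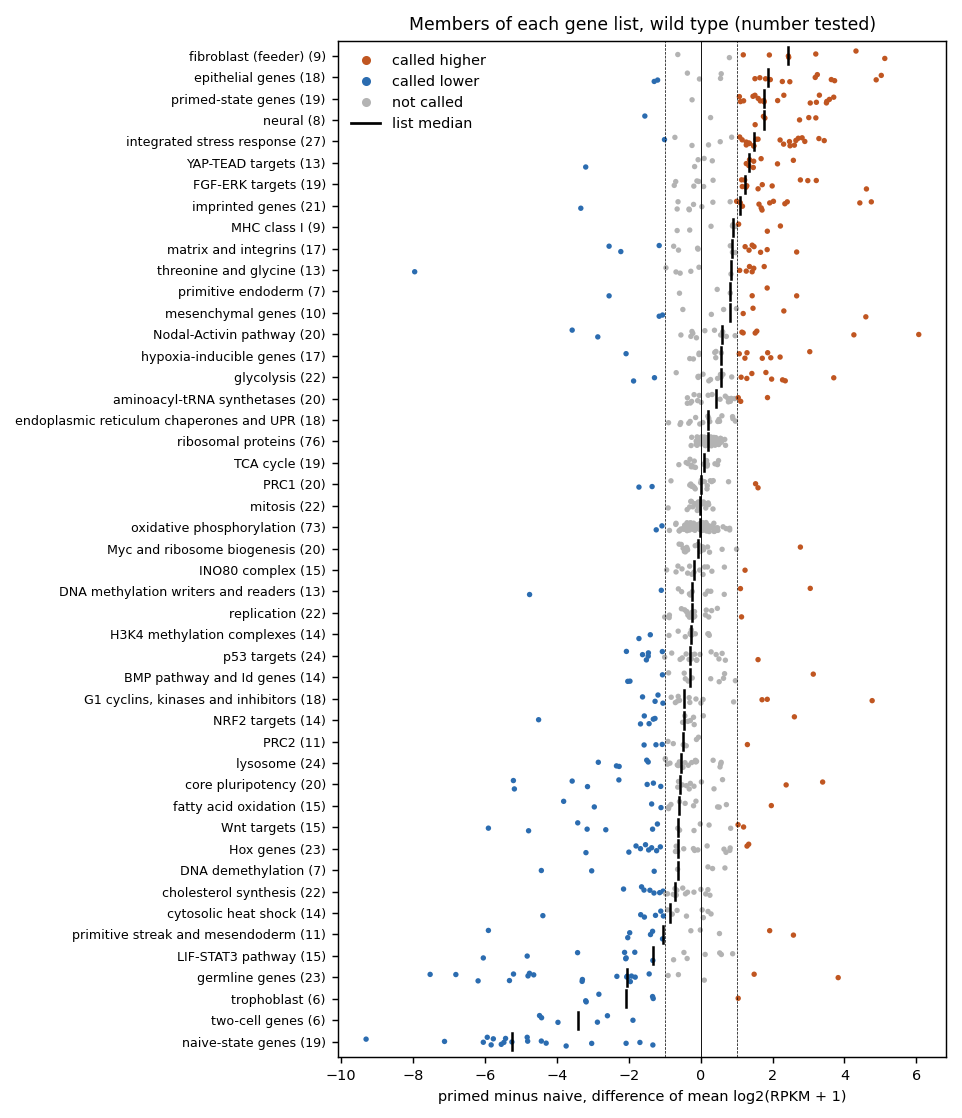
Primed minus naive difference of mean log2(RPKM + 1) for each tested member of 47 gene lists in wild type (points; the number tested is in brackets), with the list median as a black bar and dashed lines at a difference of 1. The lists run from naive-state genes (median -5.25) at the bottom to fibroblast markers (median 2.44) at the top, and ribosomal, tricarboxylic acid cycle, mitosis and oxidative phosphorylation genes cluster near 0.

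Outside the lists, the genes with the largest rises were of mixed function. Kif1a, a motor of axonal transport, rose from 0.218 and 0.195 to 59.3 and 59.7 RPKM (5.65 ± 0.04). Slc39a8, a zinc and manganese importer, rose from 0.176 and 0.157 to 51.2 and 54.9, and Car4, a membrane carbonic anhydrase, from 0.120 and 0.0451 to 43.9 and 45.1. Thbs1, the matrix protein thrombospondin, rose from 0.196 and 0.155 to 45.7 and 45.8 RPKM and Flnc, an actin crosslinker, from 0.308 and 0.253 to 42.0 and 42.7. Chst1, Pkdcc, Ramp3 and Fndc3c1 rose by 5.36, 5.22, 5.15 and 4.96. Among the largest falls, Mylpf, a muscle myosin light chain, fell from 411 and 418 to 3.46 and 2.58 RPKM (-6.70 ± 0.10), Triml2 from 119 and 121 to 0.373 and 0.221, and Aqp3, a water and glycerol channel, from 111 and 110 to 0.259 and 0.192. Calcoco2, an autophagy receptor, fell from 71.8 and 71.4 to 0.0581 and 0.0590 RPKM, and Rpl39l, a ribosomal protein copy of germ cells, by 6.45.

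The libraries labelled knockout give the same contrast in 4 libraries that the wild-type comparison does not use. There 2707 of the 13056 genes were called (20.7%). Of the 3374 genes called in wild type, 2165 (64.2%) were called in the same direction, 80% of the 2707, and 12 in the opposite one. The sign was the same for 3265 of the 3374 and opposite for 109. By list, 18 of 19 naive-state genes and 17 of 18 primed-state genes called in wild type were also called there, as were 18 of 20 germline genes and 11 of 13 imprinted genes. Most wild-type calls were shared on some other lists too, with 10 FGF and ERK targets and 12 epithelial genes called in both in the same direction. On a few lists most wild-type calls were not shared. Only 5 genes of the integrated stress response, 1 p53 target and 1 cytosolic heat shock gene were called in both, in the same direction. The difference between the 2 state differences was called for 910 genes (6.97%), 539 higher and 371 lower in wild type, and 578 of them were among the 3374. In the deposited values it was called for 2872 genes higher and 100 lower, and the state difference of the libraries labelled knockout for 892 higher and 2063 lower against 1333 and 1374 here. Beside the genes given above, Lefty1 rose less in the libraries labelled knockout, from 1.17 and 1.06 to 22.9 and 21.7 RPKM (wild type minus knockout 2.76 ± 0.07), H19 rose less, from 3.81 and 3.87 to 15.7 in both (3.07 ± 0.07), and Fgf5 rose more, from 0.0845 and 0.0895 to 20.6 and 19.9 (-2.40 ± 0.07). Nanog fell further there, from 527 and 565 to 40.9 and 41.0 RPKM (1.54 ± 0.04). Vegfa stood at 4.90 and 5.18 against 5.17 and 5.59 RPKM (3.05 ± 0.07). How these genes differ between the labels within a state is not described here.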

How the data were processed

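The authors deposited 1 RPKM value per gene and library, scaled further by a method the sources used here do not give. Per the submitters' processing notes, cutadapt 1.9, STAR 2.5.2b, featureCounts 1.5.1 and affy were used with build mm9. Total RNA was depleted of ribosomal RNA, and the strand used in counting is not stated in these sources. Spike-ins were added per the labels' protocols, but 0 spike-in rows are listed. Read totals are unknown, so no counting error can be given.

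The 4 wild-type libraries were quantile normalized together on log2(RPKM + 1) over all 24505 rows and fitted with limma 3.58.1 in R 4.3.3, with a variance trend. Genes with at least 1 RPKM in 2 libraries were tested. The libraries labelled knockout were normalized separately, so their levels are not on the wild-type scale, and the difference of the state differences was fitted over all 8 libraries normalized together. The fits were run on simulated data with few planted changes and independent noise. That run checks the code and cannot give the error rates in these data.

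The members and the 47 lists were chosen with earlier results of these data known. Genes are named if they were key state or pathway genes, were among the 12 largest changes in each direction with a mean of at least 5 RPKM, or were among the up to 4 largest called per direction and the 3 most abundant not called of a list. Others are said to be chosen after their values were seen. 26 rows carry dates in place of gene names and are not named. Some results are not reported here. Promoter sequences are RefSeq's, in GRCm38.p6. Besides the motifs given above, sites of STAT and ESRRB were searched in the same way. The STAT site TTCNNNGAA was held by 1 of 13 promoters of the LIF and STAT3 list (7.69%), against 6.92% of all genes with an entry. The ESRRB site TCAAGGTCA was held by 0 of 11 promoters of naive-state genes, against 0.325%. Alternatives were the scaling, pseudocount, filter, threshold, replicate block and leaving out each library.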

Additional observations from a re-analysis of the deposited data

Results flagged for a closer look

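The state difference itself differed between the wild-type libraries and those labelled knockout for 910 genes, tested as an interaction over all 8 libraries (limma, Benjamini-Hochberg adjusted p under 0.05 and a difference of at least 1). The values below are wild type minus labelled knockout, on the log2(RPKM + 1) scale, for each gene named above that met this test. Among state and signalling genes, the difference was higher in wild type for Esrrb (1.14), Lefty1 (2.76), Nanog (1.54), Fgf4 (1.67), Gdf3 (2.12), Fgf15 (1.51), Pim1 (1.84), Pim3 (1.13) and Tet2 (1.31). It was lower in wild type for Fgf5 (-2.40), Cdx1 (-1.64), Sp5 (-1.52), Tnfrsf19 (-2.21), Id2 (-1.29), T (-4.92), Eomes (-2.34) and Wnt3 (-2.55). Among germline and imprinted genes, the difference was higher in wild type for Tdrkh (1.71) and H19 (3.07). It was lower in wild type for Magel2 (-2.17). Among metabolic genes, the difference was higher in wild type for Psph (2.36), Mthfd2 (1.98), Slc16a3 (1.17), Pgk1 (1.25), Pfkp (1.67), Slc2a3 (2.15) and Vegfa (3.05). It was lower in wild type for Cpt1a (-1.49), Ebp (-1.03), Fdft1 (-1.44), Mvd (-2.23) and Fdps (-1.17). Among genes of the integrated stress response, the difference was higher in wild type for Ddit3 (3.35), Trib3 (4.78), Chac1 (3.89), Stc2 (2.27), Atf4 (1.03), Asns (2.61), Gdf15 (1.2), Atf3 (1.91), Fgf21 (1.95), Nupr1 (1.86), Slc7a11 (1.1) and Vldlr (2.93). Of the others it was higher in wild type for Esrp1 (1.4), Cldn7 (1.34), Cyr61 (2.69), Bbc3 (1.30), Tagln (1.21), Pax6 (1.62), Slc39a8 (1.79), Car4 (1.79), Chst1 (1.86) and Pkdcc (2.21). It was lower there for Cdh2 (-1.58), Vim (-1.63), Cdkn1a (-1.63), Ddit4l (-1.21), Hspa8 (-1.26) and Nqo1 (-1.19).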

How the results depend on the processing

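Of the 163 called genes that were followed by name, 13 lost the call under at least 1 alternative with the same threshold, and 0 changed sign. Each of the 13 is named beside its values. Genes that a filter removed were not counted as lost. With the filter of 5 RPKM, 182 of the 197 genes followed, called or not, were still tested. The 3374 calls in wild type became 3926 in the deposited values (2761 higher), 3330 with median centring, 3280 with cyclic loess, 3425 with ranks and 4082 with a pseudocount of 0.1. A filter of 5 RPKM left 9950 genes to test, kept 67.8% of the 3374 calls and gave 1026 lower calls. With no minimum size 10984 were called (5715 higher, 5269 lower), and with a minimum of 2 there were 1120 (519 and 601). Leaving out 1 library gave 3337 to 3429 calls in wild type, 2676 to 2769 in the libraries labelled knockout and 884 to 961 for the difference between them. That difference was called for 2972 genes in the deposited values (2872 higher, 100 lower) and 1606 with a pseudocount of 0.1 (930 and 676), and the deposited values of those libraries gave 2063 lower calls; the cause was not tested. The median of all genes was 0.34 in the deposited values, -0.06 with median centring and 0.01 with cyclic loess. Lists with a median of at least 1 in size numbered 14, and 10 to 18 under the alternatives. With the replicate number as a block there were 3376 calls in wild type, 2707 in those labelled knockout and 911 for the difference; the labels do not say that numbers pair libraries, and same-numbered deviations correlated at -0.35 in the deposited and 0.03 in the normalized values. Crossed numbers, chosen after seeing the data, gave 3376 calls. Genes not called that changed sign were, in the deposited values, Ino80 (0.18), Foxd3 (0.23), Tcf7 (0.032), Nodal (0.085), T (0.36), Gapdh (0.21), Yap1 (0.10) and Ezh2 (0.032), with median centring Pim1 (-0.067), Impact (-0.28), Fdps (-0.32) and Srebf2 (-0.090), and with cyclic loess Gapdh (0.31) and Fdps (-0.020). Leaving out 1 library gave T -0.12 to 0.11 and Fdps -0.0012 to 0.015. Depth is unknown, which limits what can be said of the lowest levels.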
